A study of Homo sapiens with 12 samples.

Results

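The co-receptor gene CD14, its partner gene LY96, the Toll-like receptor genes TLR1, TLR2, TLR4, TLR6, TLR7 and TLR8, and the adaptor gene MYD88 were followed across all 12 arrays of the series. These 9 genes were taken by name, and the scanner tables hold 13 probes for them among 48800 probes on the array. The choice was made with earlier results of these data known, so counts of members beside shares over all genes are a description. The arrays measured total RNA on Illumina HumanHT-12 v3 BeadChips in 4 groups of 3 independent samples. All groups were labelled as Reh, an established human leukemia line of the B-cell precursor type. The first group had Ara-C (cytarabine, a nucleoside drug that blocks DNA synthesis) for 48 hours together with HS5 stromal cells, an established human marrow stromal line. The second had Ara-C for 48 hours together with HS stromal cells, which the labels describe no further. The third had Ara-C for 48 hours and no stroma, and the fourth was left untreated and without stroma. Stroma without Ara-C was not among the groups, the sources used here give no dose, and the labels do not say whether stromal cells were removed before RNA was prepared.

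Toll-like receptors are membrane proteins of the innate immune system that bind molecules of microbes. CD14 binds bacterial lipopolysaccharide and passes it to MD-2, the product of LY96, which sits on the outer part of TLR4. TLR2 works as a pair with TLR1 or with TLR6 and binds bacterial lipopeptides, while TLR7 and TLR8 lie in endosomes and bind single-stranded RNA. MYD88 joins the inner part of these receptors to the IRAK kinases, and the signal ends in NF-kB and interferon regulatory factors. CD14 is best known as a marker of monocytes, and leukemia blasts of the B lineage usually carry little of it.

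The labelled cell type was set against its defining markers. Of 17 markers of B-lineage precursors with probes, 5 were detected on no array, PAX5 and CD22 among them, where detected means a scanner detection p under 0.01. DNTT, the terminal transferase of lymphoid precursors, was detected on all 12 arrays, and so was the B-cell antigen gene CD79A. MPO, the myeloperoxidase of granulocyte precursors, was also detected on all 12, with a mean log2 intensity of 15.32 ± 0.13 in untreated cells (SD, n = 3). ELA2, another granulocyte precursor marker, was detected on 3 of the 12 arrays and on no untreated array. The arrays thus hold transcripts of both lineages, and "Reh" is used here as the label only.

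Promoters were taken from RefSeq for the members whose values the results turn on. The table of promoters (GRCh38.p14) has entries for 6 of the 9 members, and CD14, TLR6 and MYD88 are the tested genes among those. The 250 bases before each start are shown 5′ to 3′ on the strand of the gene, at chr5:140633176-140633425 (minus strand) for CD14, chr4:38856818-38857067 (minus strand) for TLR6 and chr3:38138411-38138660 (plus strand) for MYD88. Capitals mark matches on either strand to 3 short motifs, which are the core GAGGAA of the myeloid factor PU.1, the NF-kB motif (GGG, any 5 bases, CC) and the interferon-stimulated response element (GAAA, any 2 bases, GAAA).
CD14: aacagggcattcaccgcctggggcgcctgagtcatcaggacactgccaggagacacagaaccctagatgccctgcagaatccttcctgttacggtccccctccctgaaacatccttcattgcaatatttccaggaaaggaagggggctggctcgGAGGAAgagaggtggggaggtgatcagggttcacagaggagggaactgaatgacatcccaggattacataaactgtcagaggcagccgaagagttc
TLR6: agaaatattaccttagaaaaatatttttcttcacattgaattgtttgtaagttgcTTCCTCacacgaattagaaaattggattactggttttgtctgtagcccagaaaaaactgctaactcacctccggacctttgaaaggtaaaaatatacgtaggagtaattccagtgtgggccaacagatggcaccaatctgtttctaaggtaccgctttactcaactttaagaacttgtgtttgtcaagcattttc
MYD88: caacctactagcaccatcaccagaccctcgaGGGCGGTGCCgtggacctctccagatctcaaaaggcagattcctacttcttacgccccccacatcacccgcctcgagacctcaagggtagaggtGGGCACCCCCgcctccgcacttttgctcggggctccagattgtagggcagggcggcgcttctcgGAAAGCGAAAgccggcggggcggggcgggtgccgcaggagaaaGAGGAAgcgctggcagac
CD14 had 1 match to the PU.1 core, at positions -96 to -91 from the start, and TLR6 had 1, on the opposite strand, at -195 to -190. MYD88 had 1 match to the PU.1 core at -18 to -13, NF-kB matches at -219 to -210 and at -125 to -116, the second on both strands, and 1 match to the interferon-stimulated response element at -61 to -52. No match in these windows overlapped a match to another motif. Of 35116 RefSeq windows of this length, 23.6% held the PU.1 core, 54.4% the NF-kB motif and 3.02% the response element. A match is a string of letters and not a measured binding site.

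Signals were corrected for background, quantile normalized and put on the log2 scale, and 1 limma model was fitted to the 11183 genes that had a probe detected on at least 3 arrays. Calls rest on a Benjamini-Hochberg adjustment over all these genes, with the adjusted p under 0.05, and levels below are normalized log2 intensities. Between 13064 and 14898 probes were detected per array. All arrays lay on the same chip with each group in adjacent positions, per the file headers, and an effect of position cannot be told apart from that of group. In all, 5 of the 9 members had a probe that passed the detection filter. LY96, TLR1 and MYD88 were detected on all 12 arrays. TLR6 was detected on 9 arrays and CD14 on 6, so both entered the fit through the groups in which they were high, and a count over the genes that entered is no support by itself. Because each array reads the pooled RNA of a sample, a change in the number of cells that carry a transcript and a change per cell cannot be told apart.

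CD14 was highest with Ara-C and HS5. Its probe ILMN_2396444 read 7.22, 7.24 and 7.35 in Ara-C with HS5, 5.55, 5.37 and 5.25 in Ara-C with HS, 6.65, 5.64 and 6.17 with Ara-C alone, and 5.41, 5.37 and 5.51 in untreated cells. The HS5 arrays lay above all others, the HS and untreated arrays overlapped, and the Ara-C arrays were spread over a wide range between them. All 3 HS5 arrays, 1 HS array, 2 Ara-C arrays and none of the untreated arrays were detected. A second CD14 probe, ILMN_1740015, was detected on no array and gives no check.

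LY96, which codes for the lipopolysaccharide-binding partner of TLR4, was the member with the strongest contrast to untreated cells among those detected on all arrays. The levels of its probe ILMN_1724533 were 9.33, 9.41 and 9.57 in Ara-C with HS5, 8.45, 8.39 and 8.16 in Ara-C with HS, 9.02, 9.26 and 9.34 with Ara-C alone, and 7.17, 6.99 and 6.98 in untreated cells. The HS5 and Ara-C arrays overlapped, the HS arrays lay below both, and the untreated arrays lay below the rest.

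TLR1 and TLR6 showed the same order of groups, apart from the place of HS5 and Ara-C, whose arrays overlapped for both genes. TLR1 (ILMN_1731048) read 8.53, 8.52 and 8.09 in Ara-C with HS5, 7.30, 6.88 and 6.95 in Ara-C with HS, 8.30, 8.37 and 8.39 with Ara-C alone, and 6.64, 6.43 and 6.07 in untreated cells. TLR6 (ILMN_1654560) read 7.12, 6.86 and 7.16 in Ara-C with HS5, 6.08, 5.66 and 5.86 in Ara-C with HS, 7.21, 7.09 and 7.35 with Ara-C alone, and 4.74, 5.51 and 4.73 in untreated cells, where no array was detected. In GRCh38.p14, TLR10, TLR1 and TLR6 are neighbours on chromosome 4. The 3 probes of TLR10, the third gene of that cluster, were detected on no array. TLR1 and TLR6 are close in sequence, and since the probe sequences were not used here, binding of 1 probe to both transcripts was not tested. The second TLR6 probe, ILMN_1749287, was detected on no array.

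MYD88, the adaptor, was high in the groups where CD14 was high. The probe ILMN_1738523 read 7.81, 8.26 and 7.98 in Ara-C with HS5, 6.45, 6.29 and 6.67 in Ara-C with HS, 7.50, 7.49 and 7.75 with Ara-C alone, and 6.91, 6.51 and 6.74 in untreated cells. The HS and untreated arrays overlapped, the Ara-C arrays lay above both, and the HS5 arrays lay above the Ara-C arrays.

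**Figure D1:**
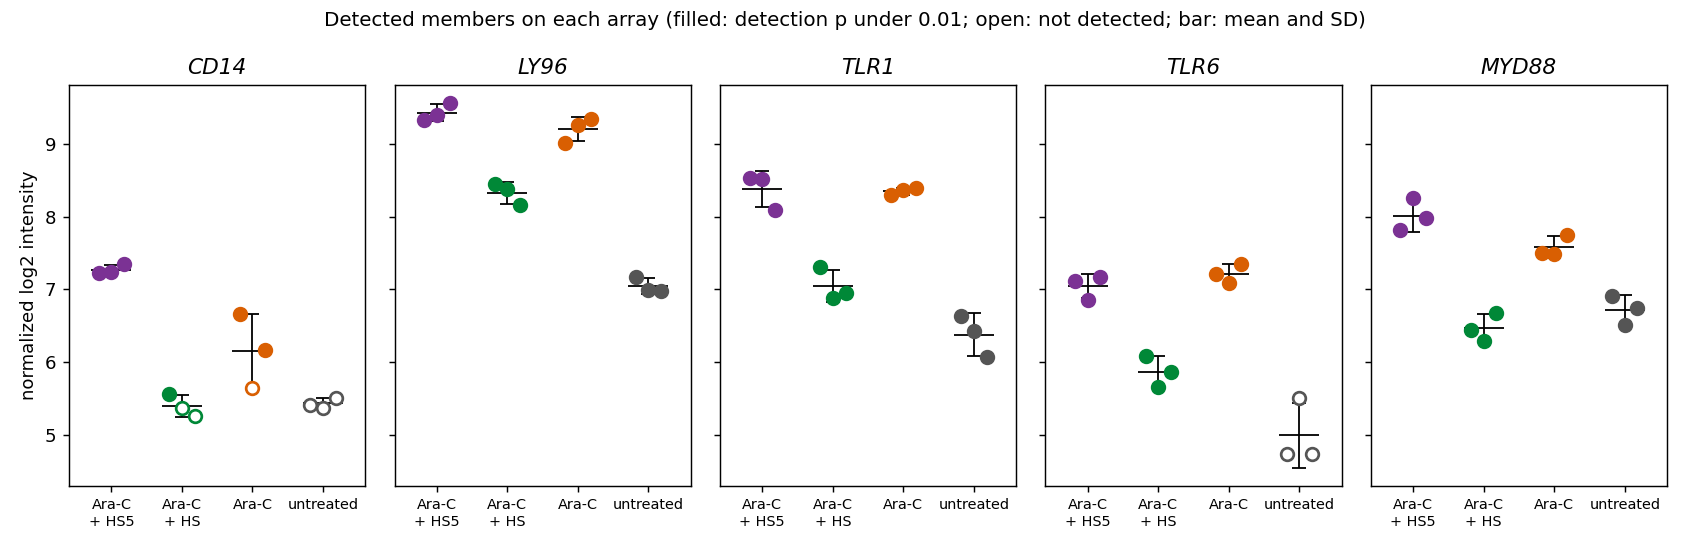
Normalized log2 intensity (y axis) of CD14, LY96, TLR1, TLR6 and MYD88 on each of the 12 arrays, by group (x axis), with filled points for detected and open points for undetected arrays and bars for the mean ± SD of 3 arrays. The Ara-C and HS5 arrays are the higher ones for every gene shown, CD14 and MYD88 with HS lie at the untreated level, and LY96, TLR1 and TLR6 with HS lie between Ara-C and untreated cells.

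The other 4 genes stayed below or at the edge of detection. TLR2 is the receptor that TLR1 and TLR6 pair with, and its only probe had detection p values of 0.507 or more on all 12 arrays. TLR7 (1 probe) and TLR8 (3 probes), which recognise single-stranded RNA, were detected on no array, with lowest detection p values of 0.0461 for TLR7 and 0.0382 for TLR8. TLR4, the signalling receptor for lipopolysaccharide, was near the limit in some groups. Its detection p values were 0.0119, 0.0224 and 0.0606 in Ara-C with HS5, 0.00922, 0.273 and 0.0830 in Ara-C with HS, 0.0184, 0.0119 and 0.0171 with Ara-C alone, and 0.249, 0.588 and 0.511 in untreated cells. With 1 of 12 arrays detected, no fold change is given for TLR4. A reading below background on this array gives only an upper bound on a transcript.

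**Figure D2:**
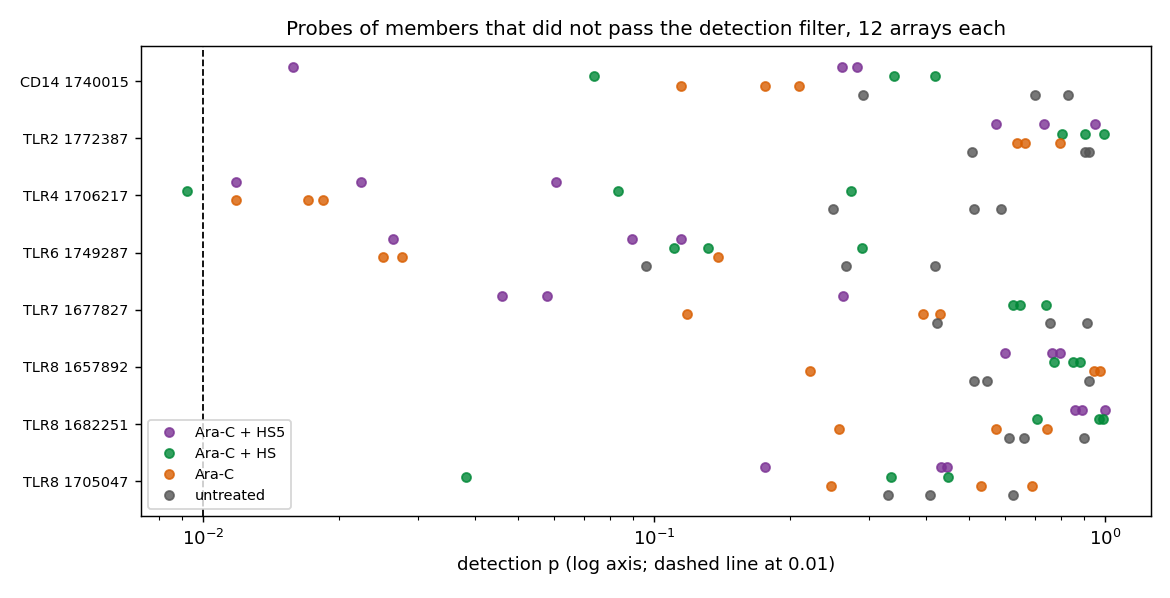
Detection p (x axis, log scale, dashed line at 0.01) of the 8 probes of CD14, TLR2, TLR4, TLR6, TLR7 and TLR8 that did not pass the filter, 12 arrays each, with points coloured by group. Of the 96 readings 1 is under 0.01, a TLR4 reading in Ara-C with HS, and the 3 Ara-C readings of TLR4 lie at 0.0119 to 0.0184.

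Ara-C alone was first set against untreated cells, which gives the effect of the drug where no stroma was present. CD14, LY96, TLR1, TLR6 and MYD88 were higher with Ara-C, so 5 of the 9 members were called higher, while 25.5% of the genes tested were called higher and 51.8% were called in either direction. Of the called genes 49.2% were higher in this fit and 76.4% when arrays were set to a common median in place of quantile normalization, a scaling that moved the median log2 fold change of all genes to 0.19 and under which the 5 members were still called higher. LY96 averaged 9.21 ± 0.17 with Ara-C and 7.05 ± 0.11 in untreated cells (SD, n = 3 each), a 4.47-fold rise (log2 fold change 2.16, SE 0.11, limma adjusted p = 8.59e-09). TLR1 averaged 8.35 ± 0.05 with Ara-C and 6.38 ± 0.29 in untreated cells, a 3.92-fold rise (log2 fold change 1.97, SE 0.16, limma adjusted p = 4.63e-07). TLR6 averaged 7.22 ± 0.13 with Ara-C and was below background in untreated cells, which makes its rise at least 2.73-fold (limma adjusted p = 6.13e-07 for the fitted change). MYD88 averaged 7.58 ± 0.15 with Ara-C and 6.72 ± 0.20 in untreated cells, a 1.82-fold rise (log2 fold change 0.86, SE 0.14, limma adjusted p = 0.000231). CD14, below background in untreated cells, averaged 6.15 ± 0.51 with Ara-C, and its fitted change passed (limma adjusted p = 0.00555). The fitted log2 fold change of CD14, 0.72, was 0.41 without background correction and 0.47 without Ara-C replicate 1, and that of TLR6, 2.22, was 1.36 without background correction. The bound on the CD14 rise, 1.31-fold, was not tested. That bound counts Ara-C replicate 2, undetected at 5.64, below the 5.75 to 5.79 used for untreated cells. At a minimum of 2-fold in the fitted change, LY96, TLR1 and TLR6 were called higher, 3 of the 9 members, beside 6.85% of the genes tested. For each of the 5 genes all 3 Ara-C arrays lay above all 3 untreated arrays, a separation in either direction that 60% of the genes tested showed.

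HS stroma with Ara-C was then set against Ara-C alone, the question being what this stroma adds under the drug. The same 5 genes were lower with HS than with Ara-C alone, 5 of the 9 members, beside 20.5% of the genes tested called lower and 42.1% called in all. The common median scaling made 39.6% of the called genes higher, against 51.3% here, and kept the 5 members lower. TLR6 averaged 5.87 ± 0.21 in Ara-C with HS and 7.22 ± 0.13 with Ara-C alone (SD, n = 3 each) and fell 2.54-fold (log2 fold change -1.35, SE 0.19, limma adjusted p = 9.34e-05). TLR1 fell 2.47-fold, to 7.05 ± 0.23 in Ara-C with HS against 8.35 ± 0.05 with Ara-C alone (limma adjusted p = 3.64e-05). MYD88 fell 2.16-fold, to 6.47 ± 0.19 in Ara-C with HS against 7.58 ± 0.15 with Ara-C alone (limma adjusted p = 5.38e-05). LY96 fell 1.83-fold, to 8.33 ± 0.15 in Ara-C with HS (log2 fold change -0.87, SE 0.11, limma adjusted p = 5.97e-05). CD14 fell 1.70-fold (log2 fold change -0.76, SE 0.19, limma adjusted p = 0.00549), with 1 of 3 HS arrays and 2 of 3 Ara-C arrays detected, so that the size is uncertain. Without background correction the log2 fold change was -0.43 for CD14 and -0.89 for TLR6, both still called. TLR1, TLR6 and MYD88 fell at least 2-fold, 3 of the 9 members beside 2.63% of the genes tested. The HS and Ara-C arrays did not overlap for any of the 5 genes, as for 52.3% of the genes tested.

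The members then differed in where HS left them relative to untreated cells, a comparison in which 45.1% of the genes tested were called and 23.3% were called higher. Of the called genes 51.6% were higher, and 75.4% were with a common median, which moved the median of all genes to 0.13. LY96, TLR1 and TLR6 were called higher in Ara-C with HS than in untreated cells, 3 of the 9 members. LY96 was 2.44-fold higher (log2 fold change 1.29, SE 0.11, limma adjusted p = 1.87e-06) and TLR1 was 1.59-fold higher (limma adjusted p = 0.0044). TLR6 had a fitted log2 fold change of 0.87 (limma adjusted p = 0.002), which was 0.47 without background correction. The bound on its rise, 1.07-fold, was not tested, and HS replicate 2, at 5.66, lay below the 5.75 to 5.79 used for untreated cells. MYD88 averaged 6.47 ± 0.19 in Ara-C with HS and 6.72 ± 0.20 in untreated cells (SD, n = 3 each), a log2 difference of -0.25 with a 95% interval of -0.56 to 0.06 (limma adjusted p = 0.179). CD14 averaged 5.39 ± 0.15 in Ara-C with HS and 5.43 ± 0.07 in untreated cells, a difference of -0.04 with an interval of -0.44 to 0.36 (limma adjusted p = 0.876), near background in both groups. The comparisons of HS and of untreated cells with Ara-C alone share the Ara-C arrays, so their values are not independent of each other.

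HS5 stroma with Ara-C was set against Ara-C alone in the same way. Few genes were called, 0.903% of those tested in all and 0.528% higher, and CD14 was the 1 member among them. The unadjusted limma p was under 0.05 for 1505 of the 11183 genes, so few calls do not mean that few genes differed. Of the called genes 58.4% were higher here and 34.3% with a common median, which moved the median of all genes to -0.11. CD14 averaged 7.27 ± 0.07 in Ara-C with HS5 and 6.15 ± 0.51 with Ara-C alone (SD, n = 3 each), 2.17-fold higher (log2 fold change 1.12, SE 0.19, limma adjusted p = 0.016). All 3 HS5 arrays lay above the highest Ara-C array. The log2 fold change lay between 0.86 and 1.37 when single arrays were left out. The call was lost when Ara-C replicate 3 was left out (adjusted p = 0.0609), when HS5 replicate 1, 2 or 3 was left out (adjusted p = 0.055, 0.0506 and 0.0725), and when only the arrays of these 2 groups were fitted (adjusted p = 0.0659). MYD88 averaged 8.02 ± 0.23 in Ara-C with HS5 and 7.58 ± 0.15 with Ara-C alone, a log2 difference of 0.44 with an interval of 0.13 to 0.75 that did not pass (limma adjusted p = 0.203). Its arrays did not overlap between these groups, nor did those of 19.6% of the genes tested. For LY96 the difference was 0.23 (interval -0.02 to 0.47, limma adjusted p = 0.424), for TLR1 0.03 (interval -0.32 to 0.38, limma adjusted p = 0.958) and for TLR6 -0.17 (interval -0.57 to 0.23, limma adjusted p = 0.75). These intervals do not show that the groups are alike, but they leave out changes of the size found between HS and Ara-C for LY96, TLR1 and TLR6.

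The HS5 and HS groups were compared directly, which tests whether the effects of the 2 stromas under Ara-C differ. CD14, LY96, TLR1, TLR6 and MYD88 were higher with HS5 than with HS, 5 of the 9 members, beside 20.9% of the genes tested called higher and 43.2% called in all. CD14 had a log2 fold change of 1.88 with HS5 (SE 0.19, limma adjusted p = 5.16e-06), of uncertain size since 1 of 3 HS arrays was detected, and the value was 1.18 without background correction. MYD88 was 2.92-fold higher (1.55, SE 0.14, limma adjusted p = 2.85e-06). TLR1 was 2.52-fold higher (limma adjusted p = 2.65e-05), TLR6 2.26-fold higher (limma adjusted p = 0.000234, with a log2 fold change of 1.18 here and 0.77 without background correction) and LY96 2.14-fold higher (limma adjusted p = 7.65e-06). In this fit all 5 passed 2-fold, beside 3.09% of the genes tested, and their arrays did not overlap, as for 51.6% of the genes tested. Against untreated cells, the HS5 group had the same 5 genes higher, beside 27.5% of the genes tested called higher and 56.1% called in all (49% of the called genes, 62.3% with a common median), with LY96 5.23-fold, MYD88 2.46-fold higher, TLR1 at a mean of 8.38 ± 0.25 with HS5 and 6.38 ± 0.29 in untreated cells, CD14 at least 2.84-fold and TLR6 at least 2.43-fold higher (limma adjusted p from 2.93e-09 for LY96 to 6.42e-06 for MYD88). Without background correction the fitted log2 fold change was 1.16 for CD14, against 1.84 with it, and 1.23 for TLR6, against 2.05 with it.

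**Figure D3:**
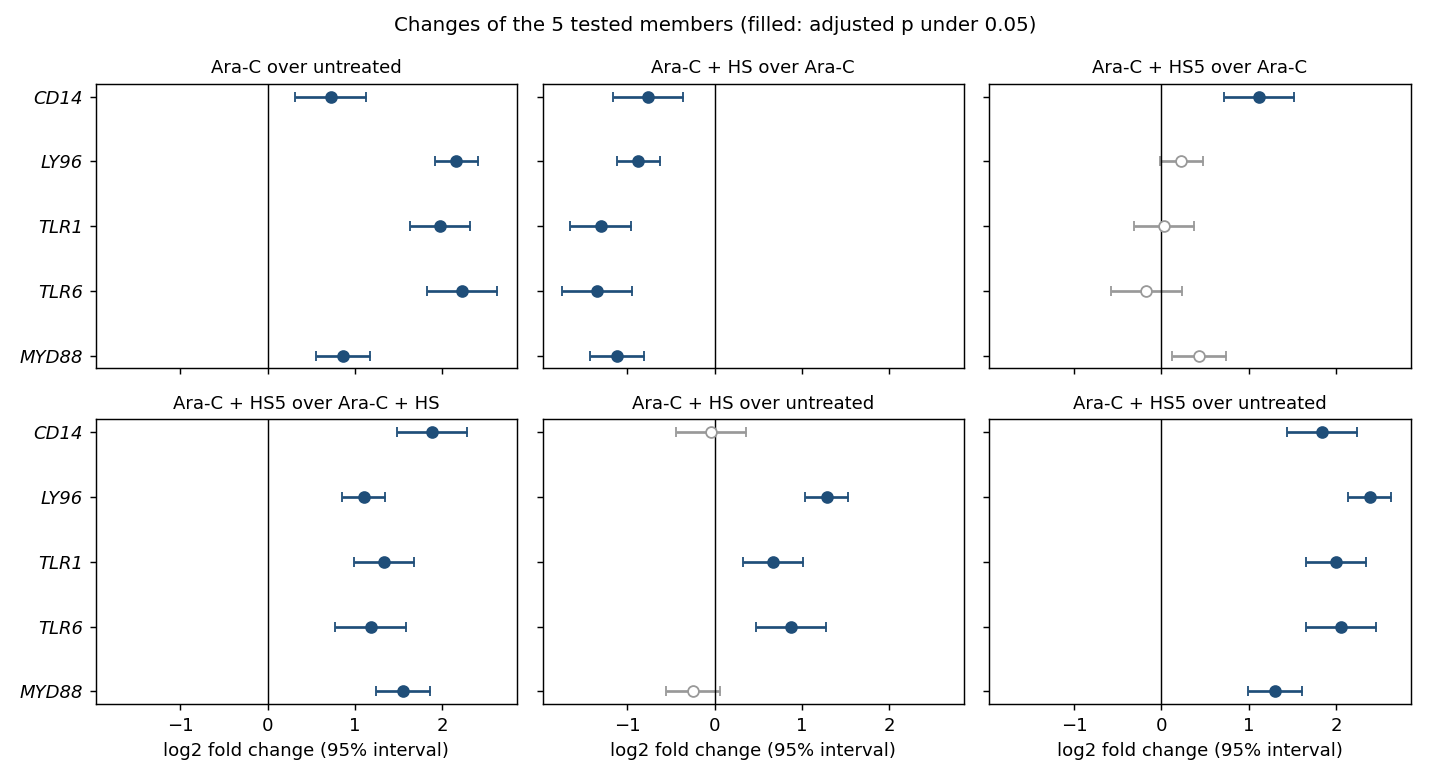
Log2 fold change (x axis) with its 95% interval for the 5 tested members (y axis) in the 6 comparisons, filled where the adjusted p is under 0.05. Every gene lies to the right of 0 for Ara-C over untreated cells and to the left for HS over Ara-C, and CD14 alone is filled for HS5 over Ara-C.

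The order of the levels over the 4 groups followed from these tests. For LY96 and TLR1 the HS5 and Ara-C groups did not differ past the threshold and stood highest, followed by HS and then by untreated cells. TLR6 had the same order with Ara-C and HS5 at the top and untreated cells below background. For MYD88 the HS5 and Ara-C groups stood above untreated cells and HS. Neither HS5 against Ara-C nor HS against untreated cells passed the test. For CD14 the order was HS5, Ara-C, and then untreated cells and HS, which did not differ past the threshold.

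Among the other Toll-like receptors, TLR9 alone was tested. TLR9, the endosomal receptor for unmethylated CpG DNA, was detected on all arrays of Ara-C with HS5 and of Ara-C alone and on no array of Ara-C with HS or of untreated cells. It was at least 1.30-fold higher with Ara-C than in untreated cells (limma adjusted p = 4.07e-05 for the fitted change) and at least 1.46-fold lower with HS than with Ara-C alone (limma adjusted p = 0.000272 for the fitted change). HS5 and Ara-C alone had means of 6.07 ± 0.41 and 6.14 ± 0.19 (SD, n = 3 each). TLR3, TLR5 and TLR10 were detected on no array.

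The genes that carry the signal from the receptors onwards were counted in lists chosen by function, with earlier results of these data known. Their counts stand beside 51.8% of all genes tested called with Ara-C and 42.1% called with HS. Of 4 tested adaptors with a TIR-type fold or link, 3 rose with Ara-C and none fell, with a median log2 fold change of 0.80, where the median of all genes was -0.03. TICAM1, the adaptor of TLR3 and TLR4 in the interferon branch, rose 3.11-fold, and TICAM2, which links it to TLR4, rose 1.99-fold. Both fell with HS, by 1.48-fold and 1.27-fold. TIRAP, which bridges MYD88 to TLR2 and TLR4, had a log2 fold change of 0.02 with Ara-C (limma adjusted p = 0.931). Of 22 tested genes of the IRAK, TRAF and kinase relay, 6 rose and 4 fell with Ara-C, and 4 rose and 3 fell with HS, while with the common median 8 rose and 1 fell with Ara-C, and 2 rose and 3 fell with HS. The 10 of 22 called with Ara-C and the 7 of 22 called with HS are no larger shares than those over all genes. IRAK2, a kinase of the MYD88 complex, rose with Ara-C by 2.15 on the log2 scale (SE 0.14) and changed by -0.64 with HS (SE 0.14). Among untreated arrays it was detected on 1 of 3, so the size of its rise is uncertain. IRAK4, the first kinase of that complex, moved the other way, with -0.30 for Ara-C (limma adjusted p = 0.049) and 0.47 for HS (limma adjusted p = 0.00708), and it was 1.58-fold higher with HS5 than with Ara-C alone (limma adjusted p = 0.0223). Neither IRAK4 call in the comparisons of Ara-C with untreated cells and of HS5 with Ara-C held with the common median (adjusted p = 0.895 and 0.0754).

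Of 9 tested NF-kB and IRF factors, 4 rose and 1 fell with Ara-C, so that 5 of 9 were called, near the 51.8% over all genes. IRF7, which drives interferon genes downstream of TLR7 and TLR9, averaged 11.34 ± 0.12 in Ara-C with HS5, 9.79 ± 0.14 in Ara-C with HS, 10.65 ± 0.03 with Ara-C alone and 8.89 ± 0.14 in untreated cells (SD, n = 3 each). Like CD14, it was called higher with HS5 than with Ara-C alone (1.61-fold, limma adjusted p = 0.00882). IRF8, a factor of monocytes and B cells, was below background in untreated cells, rose at least 3.30-fold with Ara-C and fell 2.09-fold with HS. In the receptor trafficking list of 12 tested genes, 5 rose and 1 fell with Ara-C, while with HS none rose and 5 fell. With 6 of 12 not called with Ara-C and 7 of 12 not called with HS, the shares called are near the 51.8% and 42.1% over all genes. UNC93B1, the chaperone that carries TLR7, TLR8 and TLR9 to endosomes, rose 1.57-fold with Ara-C and fell 1.38-fold with HS. CNPY3, a chaperone for the folding of several Toll-like receptors, fell 1.68-fold with HS.

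Of 8 tested genes of lipopolysaccharide transfer and accessory receptors, 4 rose and 1 fell with Ara-C, and 1 rose and 3 fell with HS. The 5 of 8 and 4 of 8 called are near the 51.8% and 42.1% over all genes. ITGAM, a chain of an integrin of myeloid cells that binds complement, rose 6.87-fold with Ara-C. TREM1, a receptor that amplifies Toll-like receptor signals, was below background in untreated cells and in Ara-C with HS, rose at least 1.44-fold with Ara-C and fell at least 1.62-fold with HS. CD180, CD36 and BPI were detected on no array. Of 17 tested negative regulators, 8 rose and 4 fell with Ara-C, and 4 rose and 7 fell with HS, while with the common median 12 rose and 1 fell with Ara-C. Over all genes, 25.5% were called higher with Ara-C and 20.5% lower with HS. ATF3, a repressor of cytokine genes, rose 2.42-fold with Ara-C and fell 2.40-fold with HS, while INPP5D, a phosphatase that dampens signalling, fell 1.87-fold with Ara-C and rose 2.15-fold with HS.

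Cytokine and other target genes of Toll-like receptors had 24 members with probes, of which 12 were tested. With Ara-C 10 rose and none fell (median log2 fold change 2.09), and with HS 1 rose and 8 fell (median -1.40, where the median of all genes was 0.01). Of all genes tested, 25.5% were called higher with Ara-C and 20.5% were called lower with HS. Several of the target genes passed the detection filter only through the groups in which they were high, so the counts and medians are a description. CD86, a ligand for the T-cell receptor CD28, was below background in untreated cells and in Ara-C with HS, rose at least 7.10-fold with Ara-C and fell at least 7.97-fold with HS. CCL3, a chemokine gene, rose at least 3.71-fold with Ara-C and fell at least 4.16-fold with HS. IL6, IL12A, IL12B, PTGS2 and CD40 were detected on no array. Between HS5 and Ara-C alone, CCL2 had a log2 difference of 0.57 (limma adjusted p = 0.0889) and CCL3 of -0.62 (limma adjusted p = 0.116), and both passed without background correction (adjusted p = 0.0285 and 0.0168).

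**Figure D4:**
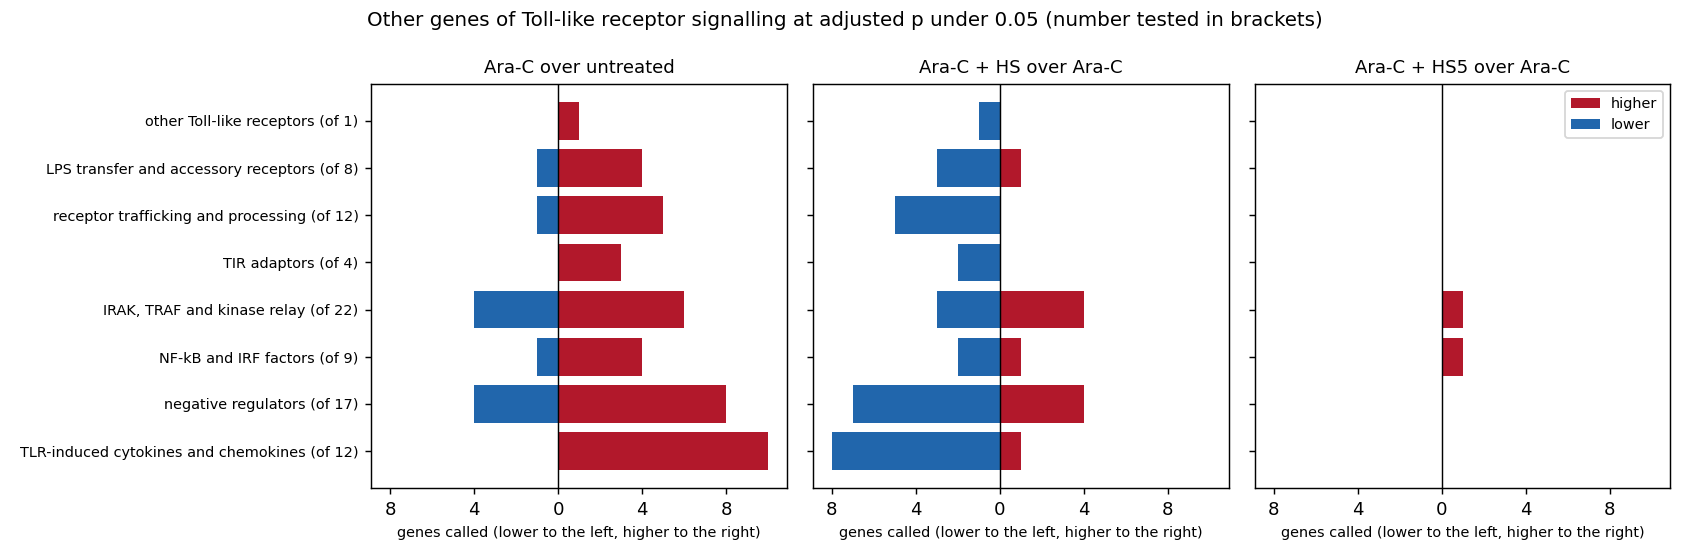
Number of genes called lower (left of 0) and higher (right of 0) on the x axis for 8 lists of Toll-like receptor signalling (y axis, number tested in brackets) in 3 comparisons. Most bars point right for Ara-C over untreated cells, with 10 of 12 target genes higher, beside 25.5% of all genes tested. Most bars point left for HS over Ara-C, and 2 genes in all are called for HS5 over Ara-C.

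Markers of other cell types were counted in the same way. Over all genes tested, 51.8% were called with Ara-C, 42.1% with HS and 0.903% between HS5 and Ara-C alone. Of 15 tested monocyte and macrophage markers, 11 rose and 1 fell with Ara-C, and 4 rose and 9 fell with HS. The 4 that rose with HS, where the members fell, were ITGAX, MS4A7, SPI1 and CEBPB. Between HS5 and Ara-C alone, where CD14 was the member called, 2 of the 15 rose, S100A8 (log2 fold change 0.94, limma adjusted p = 0.00882) and S100A9 (0.80, limma adjusted p = 0.0413), which code for calcium-binding proteins of myeloid cells. The other 13 were not called there. Sums given for the marker lists are the log2 of the summed linear intensities of the tested genes, in which the brightest genes weigh most. For this list the sum ran from 13.82 to 13.95 in Ara-C with HS5, 13.72 to 13.87 in Ara-C with HS, 13.76 to 13.95 with Ara-C alone and 13.23 to 13.29 in untreated cells. The ranges of Ara-C with HS and of Ara-C alone thus overlapped, though 9 of the 15 markers fell with HS. CSF1R, which binds the macrophage colony-stimulating factor, rose 4.05-fold with Ara-C, and CD163, VCAN and CLEC7A were detected on no array. Of 5 tested T and NK cell markers, all 5 rose with Ara-C and all 5 fell with HS, and their sum ran from 12.84 to 12.98 in Ara-C with HS5, 11.95 to 12.26 in Ara-C with HS, 12.62 to 12.79 with Ara-C alone and 11.47 to 11.56 in untreated cells. CD2, CD3E, CD3G, CD5 and KLRD1 were detected on no array.

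B-lineage markers went the other way, with 1 risen and 8 fallen of 11 tested with Ara-C, and 10 risen and none fallen with HS. Between HS5 and Ara-C alone 2 of the 11 fell, DNTT (log2 fold change -0.56, limma adjusted p = 0.0232) and IGLL1, a part of the surrogate light chain (-0.50, limma adjusted p = 0.016). The sum over the 11 ran from 11.74 to 11.93 in Ara-C with HS5, 12.85 to 12.90 in Ara-C with HS, 12.10 to 12.19 with Ara-C alone and 12.85 to 12.93 in untreated cells. Granulocyte precursor markers had 1 risen and 6 fallen of 11 with Ara-C, and 7 risen and 1 fallen with HS. The sums were 15.27 to 15.37 in Ara-C with HS5, 15.60 to 15.69 in Ara-C with HS, 15.39 to 15.51 with Ara-C alone and 15.80 to 15.95 in untreated cells. The part of the changes in monocyte, T and NK cell, B-lineage and granulocyte markers in the results for the members was not tested.

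Stromal fibroblasts can themselves carry Toll-like receptors, so their markers were read on every array. Of 20 fibroblast markers with probes, 13 were detected on no array, COL1A1, COL1A2 and LUM among them, in the HS5 and HS groups as in the others. The sum of the 7 tested ran from 10.87 to 11.06 in Ara-C with HS5, 10.99 to 11.03 in Ara-C with HS, 11.02 to 11.08 with Ara-C alone and 9.68 to 9.79 in untreated cells. With HS5 none of the 7 was called against Ara-C alone by limma (1 of the 7 had an unadjusted p under 0.05). With HS 2 rose against Ara-C alone, COL5A1 and PDGFRB, and 1 fell, SPARC. With Ara-C and no stroma 4 of the 7 rose against untreated cells, COL6A1, SPARC, PDGFRB and ACTA2, and 1 fell, PDGFRA. Of 9 endothelial markers 5 were detected on no array, and 3 of 3 tested rose with Ara-C.

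Genes whose levels ran close to each tested member were found by the root mean square difference over the 12 arrays after each gene was centred on its own mean. For CD14, IFIT5 was among the 2 nearest (0.30 on the log2 scale). For LY96 the nearest were NRP1 (0.12) and C4orf34 (0.14), and for MYD88 they were IFIT5 (0.17) and S100A11 (0.21). PHTF1 (0.18) and JUN (0.18) lay closest to TLR1, and JUN (0.23) and ADORA3 (0.24) closest to TLR6. IFIT5 codes for an interferon-induced RNA-binding protein, JUN for an AP-1 subunit, NRP1 for a co-receptor of vascular growth factors and ADORA3 for an adenosine receptor. Between HS5 and Ara-C alone, where CD14 was called higher, IFIT5 was 1.56-fold higher and missed the threshold (limma adjusted p = 0.0506), which it passed without background correction (adjusted p = 0.0439). The measure describes likeness over these arrays only.

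**Figure D5:**
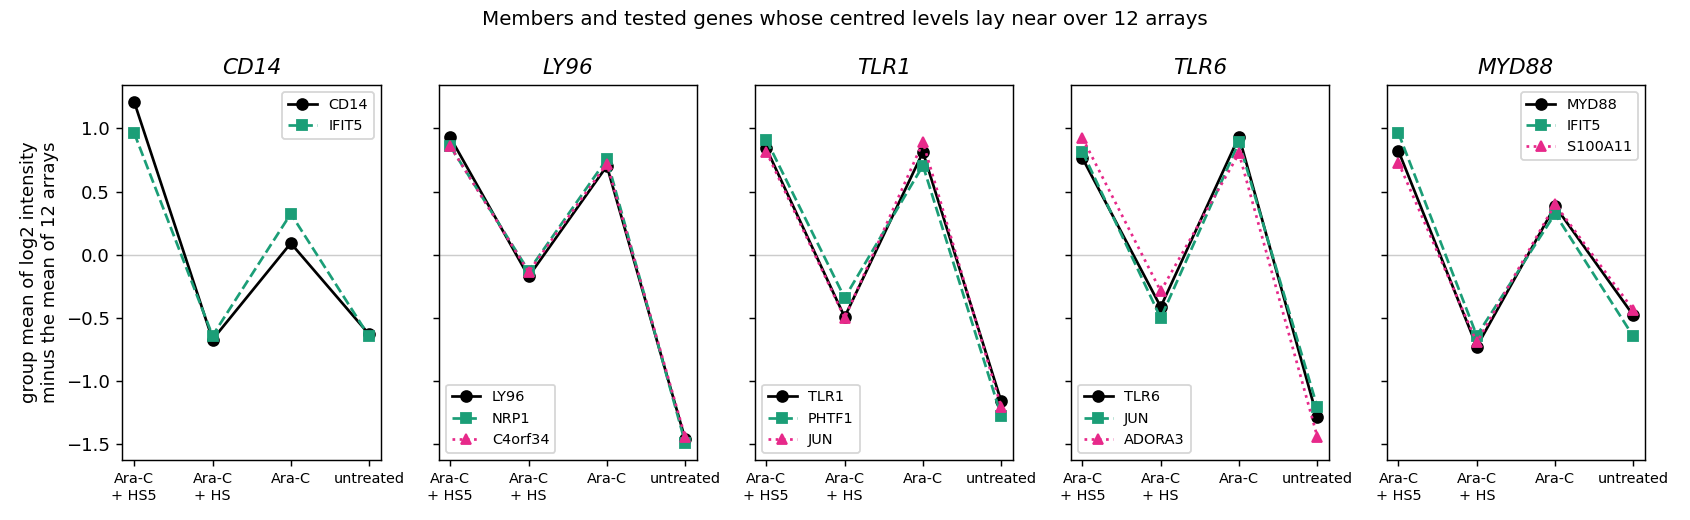
Group means of the log2 intensity after centring on the mean of 12 arrays (y axis) by group (x axis), for each tested member (black) and tested genes near to it, 1 for CD14 and 2 for each of the others. The CD14 and MYD88 panels have HS and untreated cells at about the same height, and the LY96, TLR1 and TLR6 panels have HS between Ara-C and untreated cells.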

How the data were processed

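For each of 48800 probes the deposited tables hold an intensity (the bead signal, averaged by the scanner) and a detection p-value, per the file headers. The table of log2 values deposited by the authors matched the log2 of quantile-normalized signals to within 0.000167, without background correction, and R 2.9.2 is named in the submitters' processing notes. Here the neqc function (limma 3.58.1, R 4.3.3) normalized the signals (normexp from the detection p, offset 16, quantile, log2). Probes with a detection p under 0.01 on at least 3 of 12 arrays were kept (14939), and each symbol was represented by its kept probe of highest mean (11183 genes). One lmFit and eBayes model with a mean per group (8 residual degrees of freedom) gave 6 contrasts, 2-sided. Errors of means are SD, and errors of fold changes are the model's standard errors.

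A group with no detected array has a bound, the mean over its arrays of the higher of the probe's level and the lowest level of any detected probe on that array, and a fold against it is "at least". An adjusted p beside such a fold is that of the fitted change, and the bound itself was not tested. No genome build is given in the sources used here, so gene coordinates are not printed, and promoter windows follow RefSeq's own build.

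The members and the lists were chosen with earlier results of these data known. Genes named are the members, for each list of the pathway up to 2 tested genes with the smallest adjusted p in each of the 3 main comparisons, the other Toll-like receptors, set cell markers, and for each member the 2 nearest genes, of which some items are not reported here. Not every gene taken by the rule is given. List members named as not detected, fibroblast markers named as called, ITGAX, MS4A7, SPI1, CEBPB, S100A8, S100A9 and IGLL1 were chosen after their values were seen. Same-numbered replicates showed no shared effect (correlation of deviations from -0.05 to 0.03 over 18 pairs), so no block was used. The procedure was tested on simulated data. The number of arrays limits the precision.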

Additional observations from a re-analysis of the deposited data

Results flagged for a closer look

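The effect of stroma under Ara-C differed between HS5 and HS for 5 members, by the direct limma contrast of the 2 groups (3 arrays each). The difference, HS5 minus HS, was 1.88 on the log2 scale for CD14 (adjusted p = 5.16e-06), 1.10 for LY96 (adjusted p = 7.65e-06), 1.33 for TLR1 (adjusted p = 2.65e-05), 1.18 for TLR6 (adjusted p = 0.000234) and 1.55 for MYD88 (adjusted p = 2.85e-06). For CD14 the size is uncertain, since 1 of 3 HS arrays was detected. Without background correction the difference was 1.18 for CD14 and 0.77 for TLR6, both still called. All 3 HS5 arrays lay above all 3 HS arrays for each of these genes, and 51.6% of the genes tested showed no overlap in either direction. CD14 and TLR6 entered the fit through the groups in which they were high. The contrast of HS5 with HS called 43.2% of the genes tested.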

How the results depend on the processing

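Across 22 alternatives, 649 of 660 member results kept both their direction and their side of the threshold. In 5, CD14 lost its call between HS5 and Ara-C alone, as the report gives. In 6, a difference that passed in neither fit changed sign. With a common median CD14 became 0.17 and MYD88 0.01 between HS and untreated cells, and TLR1 became -0.07 between HS5 and Ara-C alone. TLR1 was also -0.05 without HS5 replicate 1 and -0.04 without HS5 replicate 2, and CD14 was 0.03 without HS replicate 3. No called member result changed sign. Of 264 counts of called genes and members, 249 stayed within 1.5 times the value reported, and the 15 exceptions all concern HS5 against Ara-C alone. There 101 genes were called, against 205 without background correction, 205 on the authors' deposited log2 values and 62 when only these 2 groups were fitted. The count ran from 28 (without Ara-C replicate 3) to 106 when single arrays were left out, with 31 without Ara-C replicate 2, 32 without HS5 replicate 1, 40 without HS5 replicate 3, 47 without HS5 replicate 2 and 50 without Ara-C replicate 1. The count of members called there was 1, it was 0 when only these 2 groups were fitted, and 0 to 1 when single arrays were left out. Fewer arrays enter those fits.

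With the replicate block the count for this comparison was 58, CD14 stayed called, and no other member call changed. The replicate numbers showed no shared effect, since deviations of same-numbered arrays correlated between -0.05 and 0.03. Such values cannot tell whether same-numbered samples were prepared together. With a detection p under 0.05 as the filter TLR4 entered the fit and passed between Ara-C and untreated cells (adjusted p = 0.00302) and between HS5 and untreated cells (adjusted p = 0.0064). With no filter TLR4 passed in the same comparisons (adjusted p = 0.00441 and 0.00956), and TLR7 passed between HS5 and HS (adjusted p = 0.0206) and between HS5 and untreated cells (adjusted p = 0.0137). No fold is given, since no array of HS5, Ara-C or untreated cells detected TLR4 and no array detected TLR7. Detection limits TLR2, TLR4, TLR7 and TLR8, and chip position cannot be told apart from group.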
